A study of Mus musculus with 14 samples.

Results

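The effect of carrying Mesp1-Cre in E8.5 mouse embryo heads was read as the mean of 2 differences between genotype means, so that it is averaged over the second Twist1 allele. The first difference, CM-Het minus Control, was taken in heads with 1 floxed and 1 wild-type Twist1 allele (flox/wt), and the second, CM-CKO minus Het, in heads with 1 floxed and 1 deleted allele (flox/del). All 14 of 14 arrays entered, and the averaged difference was computed for each of 11394 genes with a detected probe. The flox/wt heads were 4 Control arrays without Cre and 3 CM-Het arrays with it. The flox/del heads were 3 Het arrays without Cre and 4 CM-CKO arrays with it. Every head had 1 floxed copy of Twist1, was taken at 5 to 7 somites and was of a mixed C57Bl/6, 129 and BALB/c background. Cre sits in the Mesp1 locus, so each carrier also has 1 altered Mesp1 copy and the stretch of chromosome linked to it, and the average joins these to the excision of the floxed Twist1 copy. The labels do not tell whether replicate arrays hold RNA of different embryos, litters or pools, and p-values therefore cover the spread between these arrays alone, which may be technical in part.

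Mesp1 is a bHLH transcription factor switched on briefly as mesoderm leaves the primitive streak, and Cre driven from its locus marks the descendants of those cells, among them cranial mesoderm, heart and the lining of many vessels. Twist1 is a bHLH transcription factor of head mesenchyme, active in cranial mesoderm and in neural crest, and binds DNA with partners such as Tcf3, Tcf4 and Tcf12. Head mesenchyme of either origin later gives skull, connective tissue, muscle and the cells around vessels. Whole heads also hold neural tube, surface ectoderm, neural crest and gut endoderm, so fewer cells of a type and less RNA per cell cannot be told apart in any value below.

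The arrays fell on 3 beadchips, where beadchip 1 held CM-Het and Het, beadchip 2 held Control with the first 2 CM-CKO arrays, and beadchip 3 held the other 2 of CM-CKO. A shift between beadchips 1 and 2 enters the 2 differences with opposite signs and cancels in their average, whereas a shift of beadchip 3 does not. No beadchip holds arrays with and without Cre on the same Twist1 background, so a value of the average within 1 beadchip does not exist. Median raw intensity per array ran from 92.3 to 116, and 40.3% to 43.0% of the 45281 probes were above background on a given array. Xist signal was present on 11 arrays and absent on 3 (Het 3, CM-CKO 3 and CM-CKO 4). Both Xist and the Y-linked Eif2s3y were present on 8 arrays, which thus hold RNA of both sexes. Eif2s3y log2 signal was 4.24 on CM-Het 2, 4.28 on Het 1 and 4.31 on Control 3, and at least 6.71 on all others. Arrays of each genotype therefore differed in the material they hold, and the spread between them is not technical alone. Whether RNA of several embryos was pooled is not stated. The arrays without Xist include both arrays of beadchip 3, so these cannot be told apart.

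Twist1 signal was lower with Cre on both backgrounds. Its log2 signal was 9.55, 9.17, 9.13 and 9.41 in the 4 Control arrays and 8.60, 8.55 and 8.81 in the 3 CM-Het arrays. In Het it was 8.46, 8.63 and 8.70, and in CM-CKO 7.96, 7.68, 7.72 and 7.65. No array with Cre reached an array without Cre of the same background, and the ranges of the CM-Het and Het arrays overlapped. Averaged over the backgrounds Twist1 fell 1.69-fold (log2 -0.75, SE 0.08, limma adjusted p = 6.92e-05), and a two-sided exact permutation test gave p = 0.000816, the lowest value its 1225 regroupings within backgrounds can reach. The decrease was -0.66 in flox/wt and -0.84 in flox/del, and the difference between these steps was not called (interaction -0.18, adjusted p = 0.628). Whether the probe lies in the excised part of Twist1 is not known here. Mesp1 and its neighbour Mesp2, a paralogue of the somite, were above background on 0 arrays and check nothing.

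Cre carriers differed from non-carriers at few genes, and most of these were lower. Of 11394 genes 30 were called, at a limma p adjusted by Benjamini-Hochberg under 0.05, which is 0.263% of those tested. The 26 genes called lower (0.228% of those tested) had a median decrease of 1.64-fold and the 4 called higher (0.0351%) a median increase of 1.48-fold. At an unadjusted p under 0.05, 442 genes were lower (3.88%) and 383 higher (3.36%). Genes of connective tissue matrix, of the mesenchymal cell surface and actin cytoskeleton, and transcription factors of head mesenchyme made up most of the genes called lower. The mean difference had the same sign on both backgrounds for 29 of the 30, the exception being Bgn. Of 19 other detected probes of called genes, 12 had the same direction at an unadjusted p under 0.05 and 1 the opposite sign. For 17 of the genes called lower, and for all 4 called higher, the arrays with and without Cre did not overlap on either background, a pattern that 0.307% (lower) and 0.158% (higher) of all tested genes showed. Sign and overlap were read on the same arrays that gave the calls, so they add no separate support. With the beadchip as a fixed block, where CM-CKO enters the difference through its first 2 arrays alone, 21 genes were called, 20 of the 30 among them. Mogat2, Tns1, Ppfibp2, Igfbp5, Col23a1, Esm1, Gadd45g, Mrpl48, Coa4 and Eva1b lost their calls there (adjusted p = 0.0535 to 0.129). Without the 3 arrays that lack Xist, 21 genes were called, and the same genes lost their calls except that Col6a1 and Itga9 did so (adjusted p = 0.0988 and 0.0581) and Tns1 and Ppfibp2 did not.

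**Figure D1:**
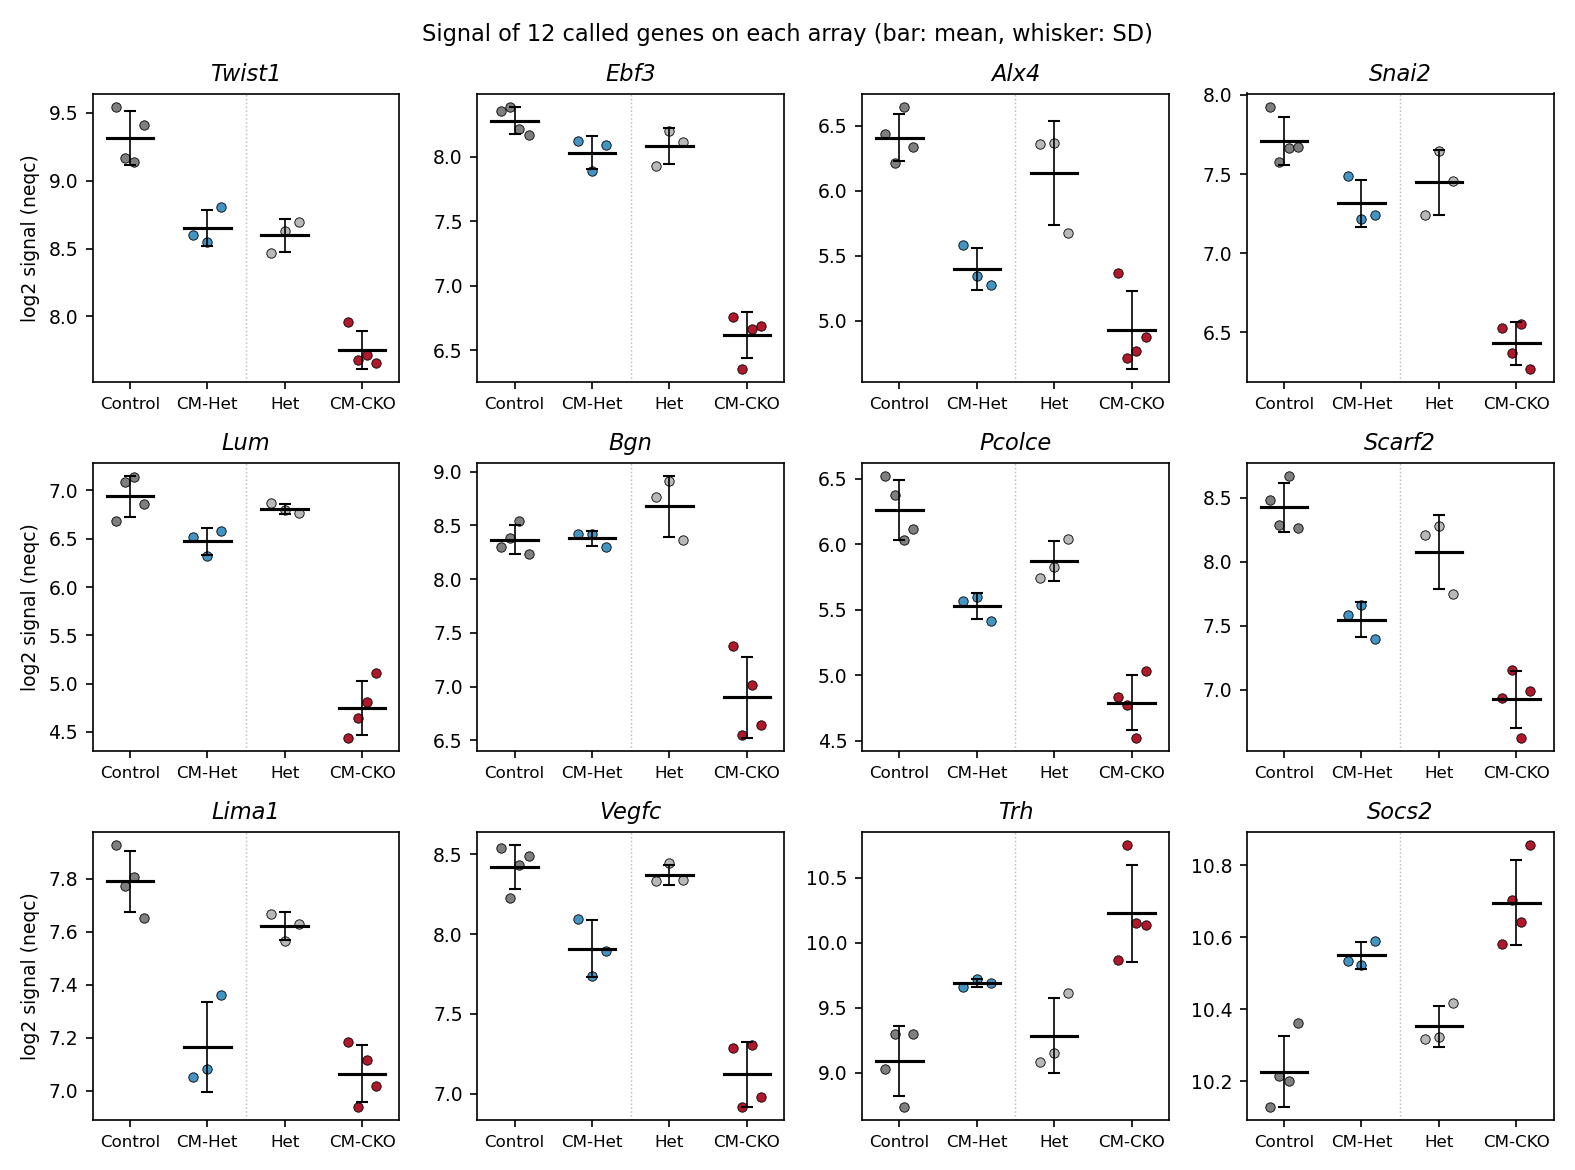
Log2 signal of 12 called genes on each of the 14 arrays, 1 point an array, with the group mean as a bar and the SD as a whisker, Cre carriers in colour. Alx4, Pcolce, Scarf2 and Lima1 stand lower with Cre on both sides of the dotted line, Bgn on the flox/del side alone, and Trh and Socs2 stand higher with Cre on both sides.

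Transcription factors of head mesenchyme were led by Alx4, Ebf3 and Snai2, all of which fell. Alx4, a homeobox factor needed for skull and face, gave log2 signals of 6.43, 6.22, 6.65 and 6.34 in Control against 5.58, 5.35 and 5.27 in CM-Het. Its signals were 6.36, 6.37 and 5.68 in Het against 5.37, 4.71, 4.77 and 4.87 in CM-CKO. All carriers lay below all non-carriers of their background, although Het 3 stood apart from the other Het arrays. Averaged, Alx4 fell 2.15-fold (log2 -1.11, SE 0.13, adjusted p = 0.00026), with steps of -1.01 and -1.21. Ebf3, a helix-loop-helix factor of head mesenchyme, was at 8.36, 8.39, 8.21 and 8.17 in Control and at 8.12, 7.89 and 8.09 in CM-Het. Het arrays read 7.93, 8.20 and 8.12 for it and CM-CKO arrays 6.76, 6.36, 6.66 and 6.69. The average change of Ebf3 (log2 -0.86, SE 0.08, adjusted p = 3.46e-05) joins a step of -0.25 and one of -1.47, which differ (interaction -1.22, limma adjusted p = 0.00466). A shift between beadchips 1 and 2 adds to this interaction and to those given below, so background and beadchip cannot be told apart in them. The other detected probe of Ebf3 read -0.22 for the average. Snai2, a zinc finger factor of migrating mesenchyme and neural crest, fell 1.63-fold (log2 -0.71, SE 0.09, adjusted p = 0.000455), by -0.39 in flox/wt and -1.02 in flox/del without overlap on either.

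The rest of the list of head mesenchyme factors lay mostly below 0 without passing the test. Of its 18 tested members, among 27 listed, 15 were lower with Cre, 3 of them called, and 6 (33.3%) were lower at an unadjusted p under 0.05 against 3.88% of all genes. This list and those below were written with earlier results of these data known, so their counts are a description and no test. The median over the list was -0.12 (-0.12 in flox/wt and -0.14 in flox/del), where the median of all genes was -0.00. Prrx1, a homeobox factor of limb and face mesenchyme, read -0.38, Snai1, a relative of Snai2, -0.34 and the zinc finger factor Zeb1 -0.16, with limma adjusted p from 0.37. Twist2, the paralogue of Twist1, stood just past the threshold (log2 -0.68, SE 0.14, adjusted p = 0.0593), with CM-Het arrays (5.64 to 5.90) that overlapped Control (5.71 to 6.54) and CM-CKO arrays (4.71 to 5.15) that all lay below Het (5.37 to 6.17). Among Twist1 and other bHLH genes 10 of 14 tested were lower and Twist1 was the 1 called, while Tcf12, a dimer partner, read -0.19 (unadjusted limma p under 0.05, adjusted p = 0.67). The branchiomeric and pharyngeal mesoderm list, whose cells also descend from Mesp1-Cre cells, had 0 of 15 called by limma and a median of 0.01. At an unadjusted p under 0.05, 4 members (26.7%) were higher (Fgf10 0.29, Isl1 0.28, Fgf8 0.25 and Tbx1 0.24) and 0 lower. The shares of all genes were 3.36% and 3.88%.

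Secreted matrix genes formed the largest group. Of 37 tested members of the extracellular matrix list 30 were lower, 7 called lower and 0 called higher, and 15 (40.5%) were lower at an unadjusted p under 0.05, against 1 higher (2.7%). Of all 11394 genes 5782 were lower and 0.228% called lower, and 3.88% were lower and 3.36% higher at that level. Col26a1, Col23a1, Tgfbi and Pcolce stand on a list written with earlier results known, so these counts are a description. Lum, the collagen-binding proteoglycan lumican, gave 6.68, 7.08, 7.14 and 6.86 in Control, and 6.52, 6.32 and 6.58 in CM-Het. In Het it gave 6.87, 6.80 and 6.77, and in CM-CKO 4.44, 4.64, 4.81 and 5.10, where it was above background on 2 of 4 arrays. Carriers and non-carriers did not overlap on either background, and the gap was far wider in flox/del. Lum had the largest averaged change of the called genes (2.41-fold lower, log2 -1.27, SE 0.11, adjusted p = 2.02e-05), from steps of -0.47 and -2.06 that differ (interaction -1.59, adjusted p = 0.00492), and a further probe read -0.86.

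Pcolce, an enhancer of procollagen processing, was at 6.52, 6.38, 6.03 and 6.12 in Control and at 5.57, 5.60 and 5.41 in CM-Het. Its Het arrays read 5.74, 5.83 and 6.04 and its CM-CKO arrays 4.83, 4.77, 4.52 and 5.03. The groups were apart on both backgrounds, and Pcolce fell 1.88-fold (log2 -0.91, SE 0.11, adjusted p = 0.00017) with steps of -0.74 and -1.08. Col6a1, a chain of the beaded collagen around cells, fell 1.73-fold (log2 -0.79, SE 0.12, adjusted p = 0.00368), by -1.14 in flox/wt and by -0.43 in flox/del, where CM-CKO 2 at 5.78 overlapped Het at 5.51 to 5.88. Tgfbi, a TGF-beta-induced adhesion protein, fell 1.66-fold (log2 -0.73, SE 0.08, adjusted p = 5.77e-05), by -0.31 and -1.15, and this difference passed the test of the interaction (-0.85, adjusted p = 0.0175). Further collagens called lower were Col26a1 (log2 -0.45, SE 0.07, adjusted p = 0.00308) and the transmembrane Col23a1 (log2 -0.58, SE 0.11, adjusted p = 0.0221). A second probe of Col26a1 read -0.13, and Col23a1 lost its call without any 1 of CM-Het 1, CM-Het 3, Het 2, Het 3, Control 4 and CM-CKO 3 (highest adjusted p 0.0998).

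Bgn, the proteoglycan biglycan, was the called gene whose steps were least alike. Control arrays read 8.30, 8.38, 8.54 and 8.23 and CM-Het arrays 8.42, 8.42 and 8.30. The Het arrays read 8.76, 8.91 and 8.36 and the CM-CKO arrays 7.38, 6.55, 7.02 and 6.65. The flox/wt groups overlapped (0.02) and the flox/del groups did not (-1.78), so the averaged -0.88 (adjusted p = 0.000822) equals neither step, and the interaction was -1.79 (adjusted p = 0.00466). Matrix genes that did not pass include the basement membrane chains Col4a2 (-0.31), Col4a1 (-0.19) and Lama1 (-0.24), while the hyaluronan synthase Has2 read 0.25. The cross-linking enzyme Lox was not above background on any CM-CKO array, at least 1.24-fold below Het, and its average was not called.

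Some surface receptors and actin-binding proteins of mesenchyme fell. Of 25 tested members of that list 20 were lower, 5 called lower and 0 called higher, where 5782 of all 11394 genes were lower and 0.228% called lower. Since this list was also written with earlier results known, the excess of calls describes the list and tests nothing. Scarf2, a scavenger receptor, gave 8.48, 8.28, 8.67 and 8.27 in Control and 7.58, 7.67 and 7.40 in CM-Het. It gave 8.21, 8.28 and 7.75 in Het and 6.93, 7.16, 6.62 and 6.99 in CM-CKO. Each carrier lay below every non-carrier of its background, and Scarf2 fell 2.02-fold (log2 -1.02, SE 0.10, adjusted p = 5.77e-05) with steps of -0.88 and -1.15. Cd248, a membrane glycoprotein of fibroblasts and pericytes, fell 1.90-fold (log2 -0.93, SE 0.10, adjusted p = 0.000129), by -0.48 and -1.38. The LIM protein Lima1, which stabilises actin filaments, fell by a like amount on both backgrounds (-0.62 and -0.56), with Control at 7.65 to 7.93, CM-Het at 7.05 to 7.36, Het at 7.56 to 7.67 and CM-CKO at 6.94 to 7.18. Its averaged decrease was 1.51-fold (log2 -0.59, SE 0.08, adjusted p = 0.000526). Pdlim4, another actin-associated LIM protein, fell 1.64-fold (log2 -0.72, adjusted p = 0.00014), though its second probe read -0.22, and the integrin chain Itga9 fell 1.33-fold (log2 -0.41, adjusted p = 0.00599) with steps of -0.40 and -0.42.

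Growth factors and secreted regulators changed in both directions. Vegfc, which guides lymphatic and venous endothelium, was at 8.54, 8.23, 8.43 and 8.49 in Control and at 8.10, 7.74 and 7.90 in CM-Het. In Het it was at 8.33, 8.45 and 8.34 and in CM-CKO at 7.29, 6.92, 7.31 and 6.98. No carrier overlapped its non-carriers, and Vegfc fell 1.84-fold (log2 -0.88, SE 0.08, adjusted p = 3.46e-05) with steps of -0.51 and -1.25. Serpinf1, a secreted antiangiogenic serpin, fell 1.60-fold (log2 -0.68, SE 0.09, adjusted p = 0.000974), by -0.88 in flox/wt and -0.47 in flox/del, and its second probe read -0.19. Igfbp5, a binding protein of insulin-like growth factors rose 1.27-fold (log2 0.34, SE 0.06, adjusted p = 0.0199) by 0.34 on each background, and both of its other detected probes were higher as well (0.25 and 0.29). Without CM-Het 1, CM-Het 3, Het 1 or Het 3 that call was lost (highest adjusted p 0.0847). Of 28 tested members of the PDGF, VEGF, CXCL12 and GDNF signalling list, Vegfc was the 1 called lower and Igfbp5 the 1 called higher. Of all genes 0.228% were called lower and 0.0351% higher. At an unadjusted limma p under 0.05, 8 members (28.6%) were lower and 7 (25%) higher, against 3.88% and 3.36% of all genes. Receptors of this list did not pass. The mesenchymal receptors Pdgfrb (-0.61, adjusted p = 0.0537) and Pdgfra (-0.33) read lower, while Kdr and Cxcr4 read higher. For Pdgfrb the arrays overlapped in flox/wt and did not in flox/del.

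Promoters of the called genes were searched for the E-box form that Twist1 dimers are known to bind. The 250 bases before the start of transcription came from RefSeq (GRCm38.p6), and 20 of the 26 genes called lower have 26 promoters there. The letters CANATG, counted on both strands and so also read as CATNTG, occurred in 5 of these 26 promoters (19.2%), against 24.0% of 11826 promoters of 9213 tested genes. The wider CANNTG, which contains it, occurred in 57.7% against 57.9%. Counted once a gene, CANATG was found in 5 of 20 genes called lower (25%) against 27.5% of tested genes, and CANNTG in 70.0% against 61.8%. Of the 3 genes called higher with a promoter in the table, 2 held CANATG and all 3 CANNTG. The promoters of Pcolce and Serpinf1, chosen afterwards as those with most matches (3 each), show what such a match looks like. Both lie on the minus strand, Pcolce at chr5:137611405-137611654 and Serpinf1 at chr11:75422624-75422873, and capitals mark the matches, which start 221, 182 and 15 bases before the start of Pcolce and 231, 76 and 13 before that of Serpinf1.
Pcolce: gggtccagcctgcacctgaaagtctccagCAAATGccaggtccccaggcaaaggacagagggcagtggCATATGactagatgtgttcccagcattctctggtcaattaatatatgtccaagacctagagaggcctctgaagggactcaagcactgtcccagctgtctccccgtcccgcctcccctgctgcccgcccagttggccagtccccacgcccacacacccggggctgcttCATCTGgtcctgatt
Serpinf1: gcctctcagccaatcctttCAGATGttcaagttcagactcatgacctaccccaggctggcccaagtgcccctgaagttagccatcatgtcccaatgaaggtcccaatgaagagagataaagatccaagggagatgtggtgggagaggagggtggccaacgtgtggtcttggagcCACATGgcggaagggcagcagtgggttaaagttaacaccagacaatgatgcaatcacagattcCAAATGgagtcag

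**Figure D2:**
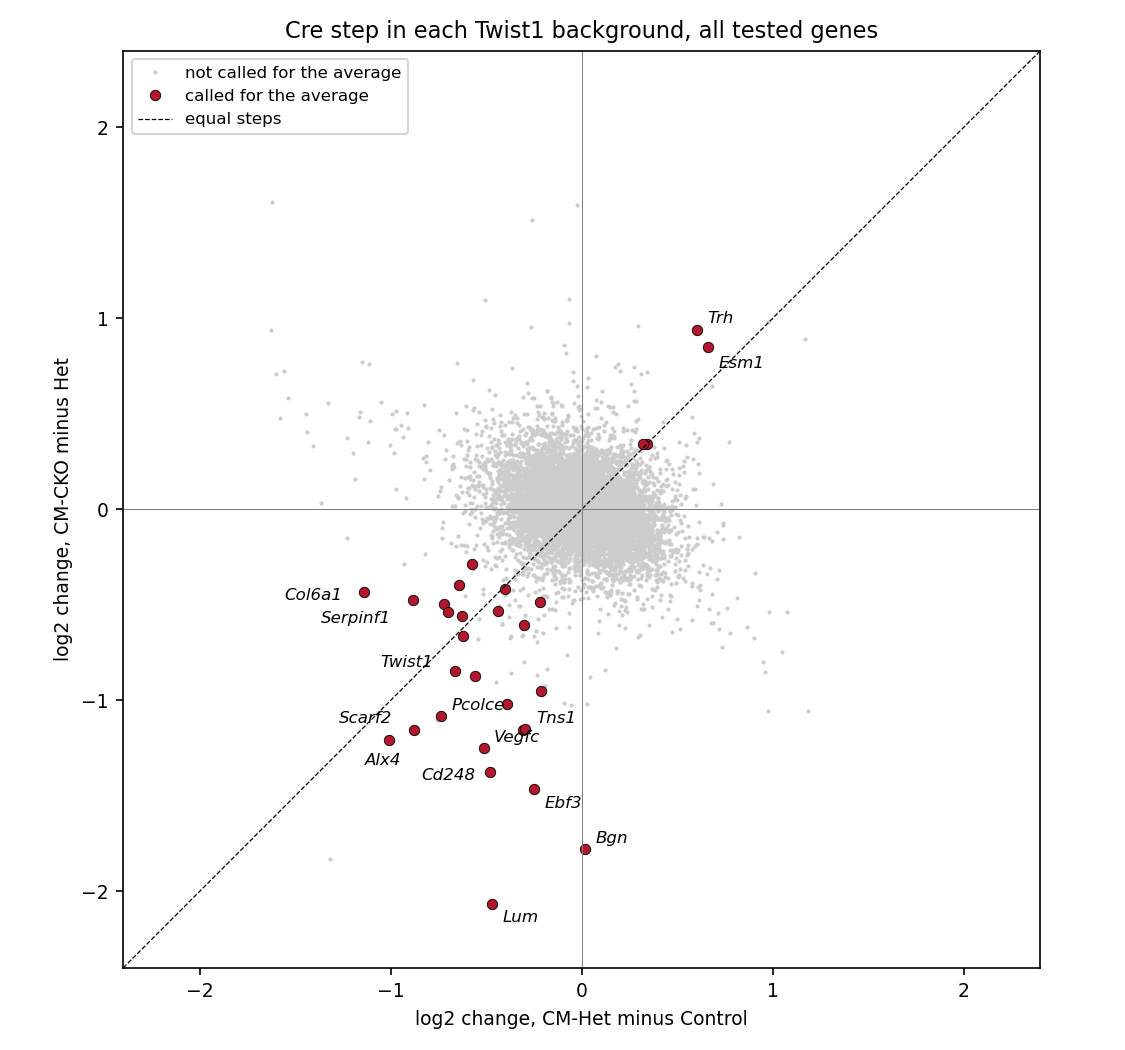
Log2 change from CM-Het minus Control (horizontal) against CM-CKO minus Het (vertical) for all 11394 tested genes, with the 30 genes called for the average in red. Called genes lie in the lower left or the upper right except Bgn at 0.02 and -1.78, and Alx4, Scarf2, Pcolce and Trh lie near the dashed line of equal steps while Lum and Ebf3 lie far below it.

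The remaining genes called higher were Socs2, Trh and Esm1. Socs2, a feedback inhibitor of growth hormone and cytokine signals, gave 10.13, 10.21, 10.20 and 10.36 in Control and 10.54, 10.52 and 10.59 in CM-Het. It gave 10.32, 10.32 and 10.42 in Het and 10.58, 10.70, 10.64 and 10.86 in CM-CKO. The separation was narrow but complete on both backgrounds, and Socs2 rose 1.26-fold (log2 0.33, SE 0.05, adjusted p = 0.00368). Trh, thyrotropin-releasing hormone, which at this stage is known from foregut endoderm, read 9.03, 9.30, 8.74 and 9.30 in Control and 9.66, 9.72 and 9.69 in CM-Het. Het arrays read 9.09, 9.15 and 9.62 and CM-CKO arrays 9.87, 10.75, 10.15 and 10.14. All carriers were above all non-carriers of their background, and Trh rose 1.71-fold (log2 0.77, SE 0.12, adjusted p = 0.00581).

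Other gut endoderm genes read higher too, without a call. Of 17 tested members of that list 14 were higher, against 5612 of all 11394 genes, and Trh was the 1 called (0.0351% of all genes were called higher). At an unadjusted p under 0.05, 4 (23.5%) were higher and 0 lower, against 3.36% and 3.88% of all genes. Trh itself is among the 4, with the RNA-binding gene Rbm47 (0.43) and the pioneer factor Foxa1 (0.21). The mean log2 signal of the list ran from 7.60 to 7.91 in Control, 7.81 to 7.86 in CM-Het, 7.45 to 7.79 in Het and 7.59 to 7.98 in CM-CKO, so carriers and non-carriers overlapped. The part of these levels in the value of Trh was not tested. Esm1, a proteoglycan secreted by endothelial tip cells, rose 1.69-fold (log2 0.75, SE 0.14, adjusted p = 0.0235) from a level near background, and it was detected on all 7 arrays with Cre and on 4 of 7 without. Omitting any of 9 arrays ended its call (CM-Het 1, 2 or 3, Het 1 or 2, Control 2, 3 or 4, or CM-CKO 3), at an adjusted p of up to 0.101.

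Endothelial genes other than Esm1 gave no calls by limma. Of 35 tested members 28 were lower, 16 of them (45.7%) at an unadjusted p under 0.05 against 3.88% of all genes, and 0 were called lower. At that level 3 members (8.57%, against 3.36% of all genes) were higher, namely Esm1, Gja5 (0.37), an endothelial connexin gene, and Lmo2 (0.17), a cofactor of blood and vessel formation. The median was -0.15 (-0.12 in flox/wt and -0.19 in flox/del). Emcn, the sialomucin endomucin, read 7.98, 7.81, 8.23 and 7.93 in Control and 7.98, 7.57 and 7.66 in CM-Het. In Het it read 8.10, 8.18 and 7.87 and in CM-CKO 7.58, 7.06, 7.65 and 7.26. CM-Het overlapped Control and CM-CKO lay below Het, and the average of -0.46 (SE 0.10) missed the threshold (adjusted p = 0.0952). The junction genes Cldn5 (-0.52), Esam (-0.29), Cdh5 (-0.34) and Pecam1 (-0.27) had adjusted p from 0.125 to 0.67. The VEGF receptor Kdr, a defining gene of the lineage, read 0.19.

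**Figure D3:**
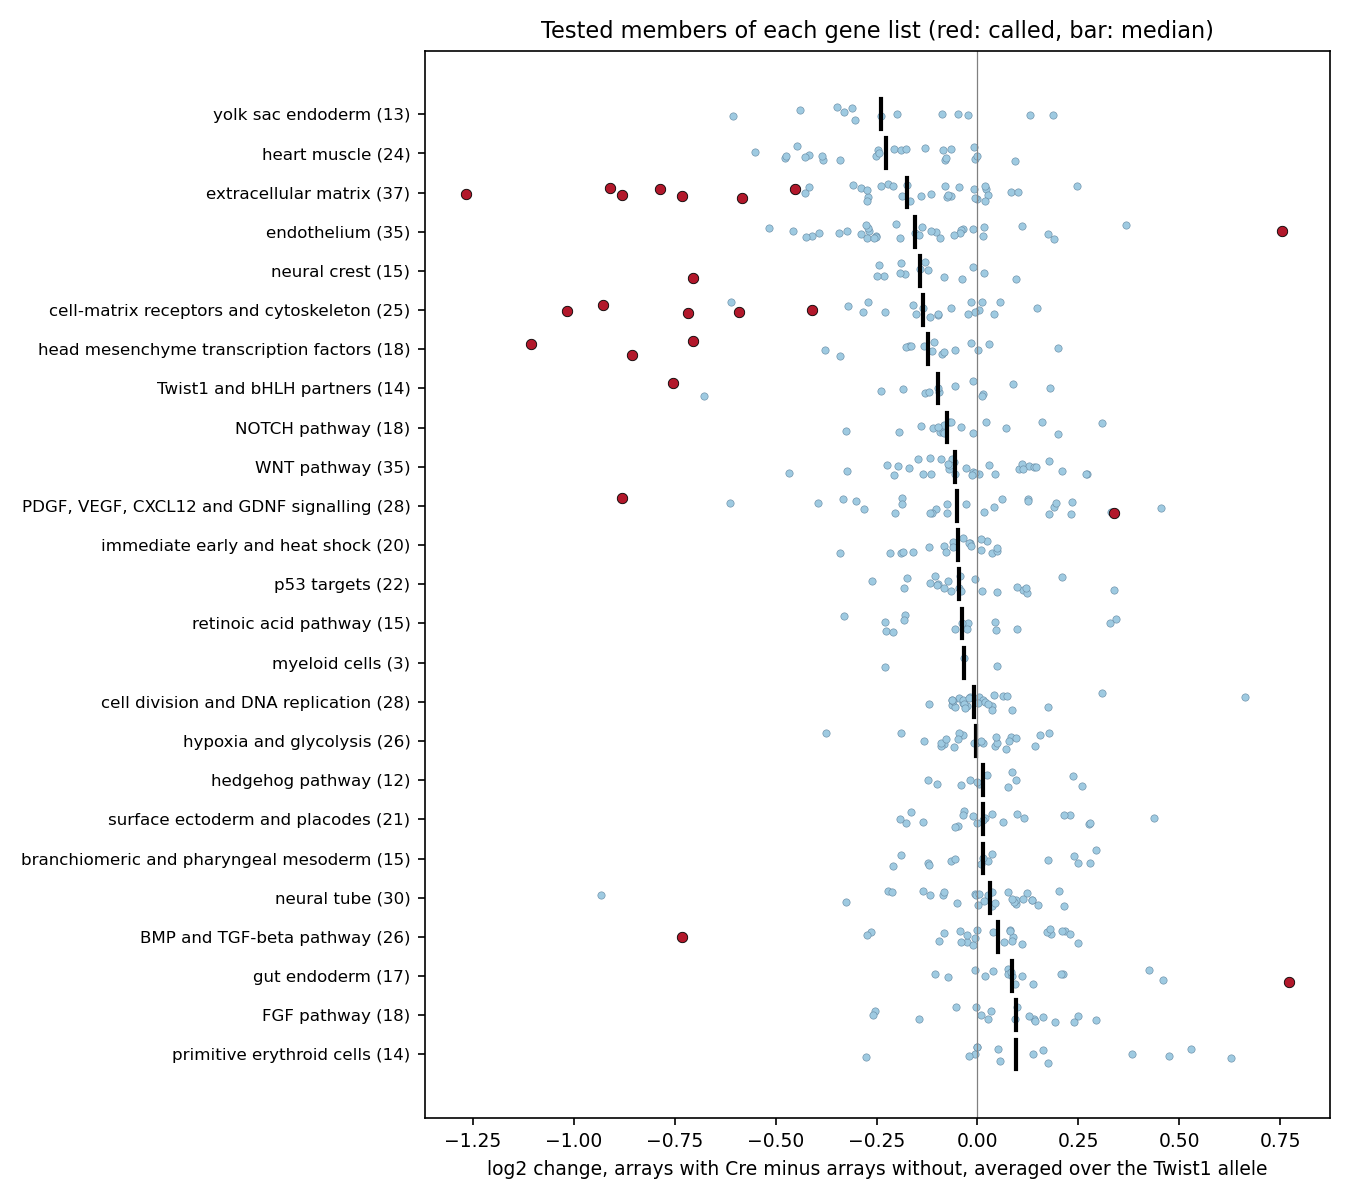
Averaged log2 change of every tested member of 25 gene lists, 1 point a gene, with the list median as a bar, called genes in red and the number tested in brackets. Matrix, receptor and cytoskeleton, head mesenchyme, endothelial, neural crest, heart muscle and yolk sac endoderm lists lie mostly left of 0. The lowest medians are those of yolk sac endoderm (-0.24) and heart muscle (-0.23), and the pathway lists centre near 0.

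Markers of heart muscle, yolk sac and blood, which lie next to the head in an embryo of this age, differed strongly between arrays. The mean log2 signal of 24 heart muscle genes ran from 6.70 to 8.82 in Control, from 6.73 to 6.94 in CM-Het, from 6.50 to 7.64 in Het and from 6.45 to 8.13 in CM-CKO. Its median change was -1.02 in flox/wt and 0.46 in flox/del, -0.23 averaged, and by limma 0 of the 24 genes were called or reached an unadjusted p under 0.05. The mean of 13 yolk sac endoderm genes was highest on Control 1 (7.12) and lay between 5.27 and 6.03 on the other 13 arrays, with a median change of -0.24 and 0 called. At an unadjusted p under 0.05, 2 of these genes (15.4%) were lower and 0 higher, against 3.88% and 3.36% of all genes. With the heart muscle mean as a covariate 43 genes were called and all 30 were among them, and with the yolk sac mean 39 were called, 29 of the 30 among them. Blood markers spread as widely (14 tested, mean of 5.96 to 7.94 over all arrays, 0 called, 1 higher and 1 lower at an unadjusted p under 0.05, 7.14% each).

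**Figure D4:**
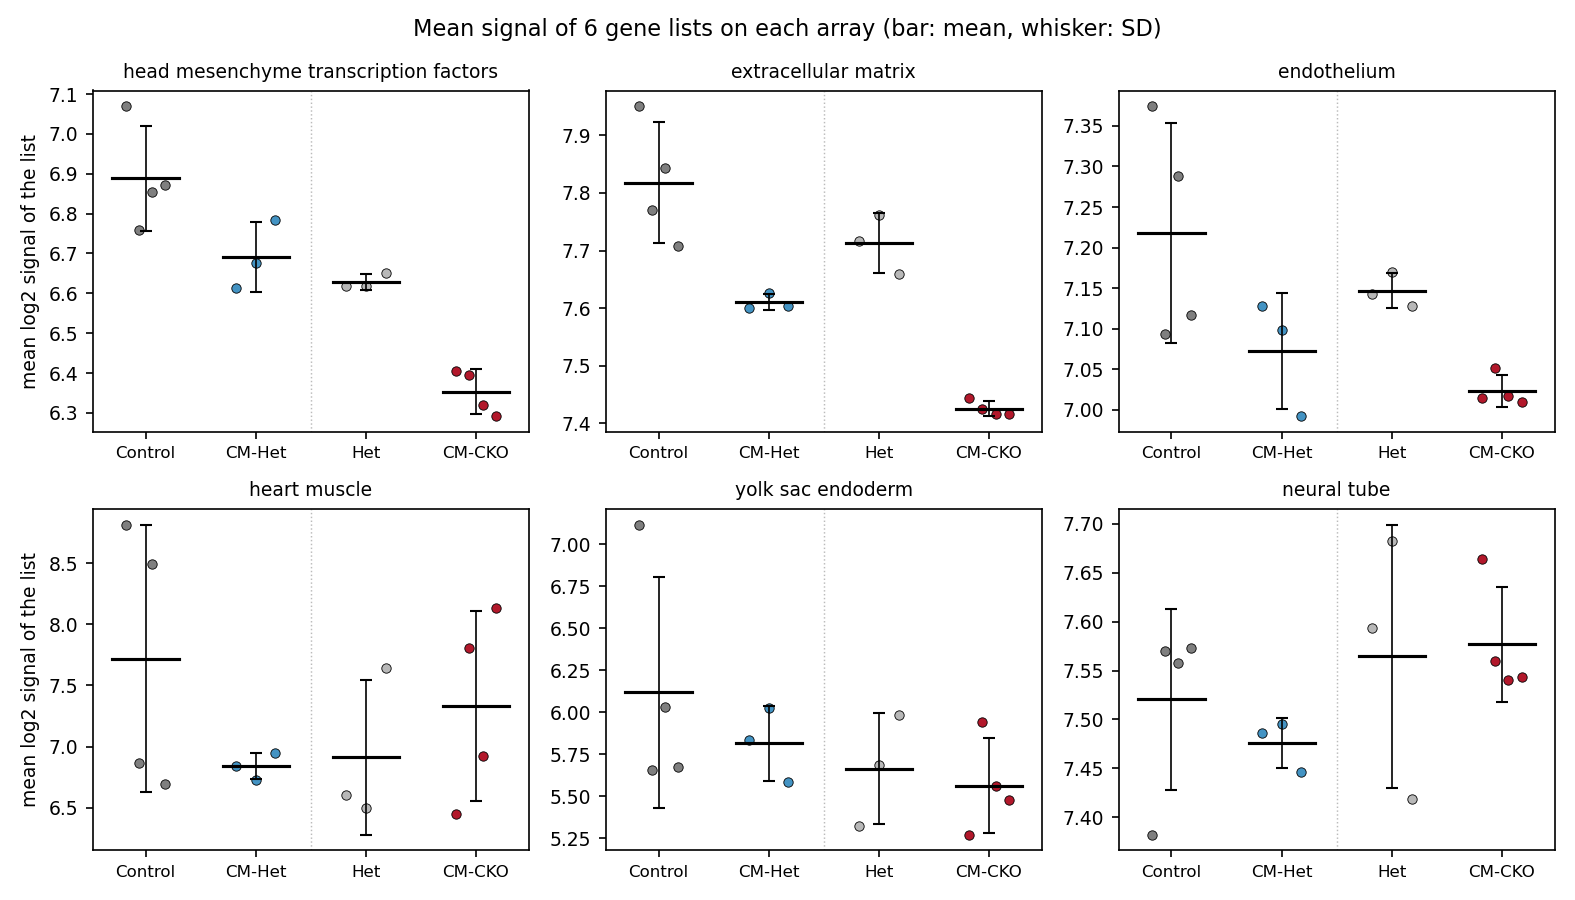
Mean log2 signal of 6 gene lists on each of the 14 arrays, with the group mean as a bar and the SD as a whisker. Matrix genes stand lower with Cre on both backgrounds with no overlap, heart muscle genes range from 6.45 to 8.82 across arrays of all genotypes, and neural tube genes stay between 7.38 and 7.68.

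The other tissues and pathways of the head gave few or no calls. Of 30 neural tube genes limma called 0 and the median was 0.03, with 2 higher (6.67%) and 1 lower (3.33%) at an unadjusted p under 0.05. Of 21 surface ectoderm and placode genes it called 0, with a median of 0.01. At that level 4 of these (19%) were higher and 0 lower, against 3.36% and 3.88% of all genes. Among 15 neural crest genes 13 were lower (median -0.14) and Snai2, which the head mesenchyme list also holds, was the 1 called, and 3 (20%) were lower and 0 higher at an unadjusted p under 0.05 against 3.88% and 3.36% of all genes. Sox9, a crest and cartilage factor, read -0.13. FGF, hedgehog, NOTCH, WNT and retinoic acid lists (18, 12, 18, 35 and 15 tested) had 0 called, with medians of 0.09, 0.01, -0.08, -0.06 and -0.04. Higher at an unadjusted p under 0.05 were 4, 1, 2, 1 and 2 members (22.2%, 8.33%, 11.1%, 2.86% and 13.3%, against 3.36% of all genes). Lower at that level were 1, 0, 1, 4 and 2 (5.56%, 0%, 5.56%, 11.4% and 13.3%, against 3.88%). The smallest adjusted p in these lists belonged to the secreted WNT modulator Dkk3 (-0.47, adjusted p = 0.0604) and the NOTCH target Hey1 (0.31, adjusted p = 0.0702). Tgfbi was the 1 called gene of 26 in the BMP and TGF-beta list, where 4 (15.4%) were higher and 3 (11.5%) lower at an unadjusted p under 0.05. No gene of the p53 target list (22 tested), the cell division list (28), the hypoxia and glycolysis list (26) or the immediate early list (20) was called by limma. Higher at an unadjusted p under 0.05 were 1, 1, 2 and 0 of them (4.55%, 3.57%, 7.69% and 0%). Lower at that level were 0, 0, 3 and 1 (0%, 0%, 11.5% and 5%).

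The chromosome of Mesp1 held the highest share of lower genes of any autosome, a count that was not tested. Of 922 tested genes on chromosome 7, 59 (6.4%) were lower at an unadjusted p under 0.05, and on the other 18 autosomes this share ran from 1.79% to 5.8%. In both directions together chromosome 7 had 9.98%, inside the range of 3.41% to 10.2% on the others. The genes of chromosome 7 that were called lower were Ebf3, Mogat2, Mrpl48, Coa4 and Ppfibp2. Of the 15 tested genes before Mesp1 in gene order 1 was lower at that level, and of the 15 after it 5 (33.3%) were, with 0 higher on either side and 0 called. Among the 100 genes before Mesp1, 7 were lower and 4 higher. Among the 100 genes after Mesp1, 18 were lower and 5 higher, and among the next 100, 7 were lower and 4 higher. The 622 genes outside these windows held 27 lower (4.34%) and 20 higher.

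Rccd1 and Unc45a, neighbours of each other beyond Mesp1, stood at the threshold. Unc45a, a myosin chaperone, gave 9.79, 10.05, 10.23 and 10.03 in Control and 9.74, 9.69 and 9.70 in CM-Het. It gave 10.17, 10.27 and 10.01 in Het and 9.90, 9.80, 9.90 and 9.86 in CM-CKO. Carriers were lower without overlap on both backgrounds, and the average was -0.30 (SE 0.06, adjusted p = 0.0537), next to -0.35 (SE 0.07, adjusted p = 0.0524) for Rccd1. The steps of either gene were close to each other, -0.31 and -0.29 for Unc45a and -0.39 and -0.31 for Rccd1. Further out, Coa4, a cytochrome oxidase assembly factor, and Mrpl48, a mitochondrial ribosome protein, fell 1.43-fold and 1.35-fold (log2 -0.52 and -0.43, adjusted p = 0.0199 and 0.00916). Mogat2, an acyltransferase of fat synthesis, fell 1.53-fold (log2 -0.61, adjusted p = 0.0069) and Ppfibp2, a liprin of cell adhesion, 1.54-fold (log2 -0.62, adjusted p = 0.0194). For all 4 the CM-CKO arrays overlapped Het. Another probe of Ppfibp2 read 0.08, the other probes of Mrpl48 read -0.38 and -0.00, and that of Mogat2 read -0.78. Coa4 lost its call without CM-Het 2, CM-Het 3, Het 1, Het 2 or Control 4 (highest adjusted p 0.0844) and Ppfibp2 without any CM-Het array, Het 1 or Het 2 (0.0686). Which strain the Mesp1 chromosome came from is not stated, and linked alleles and an effect of Cre cannot be told apart here.

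**Figure D5:**
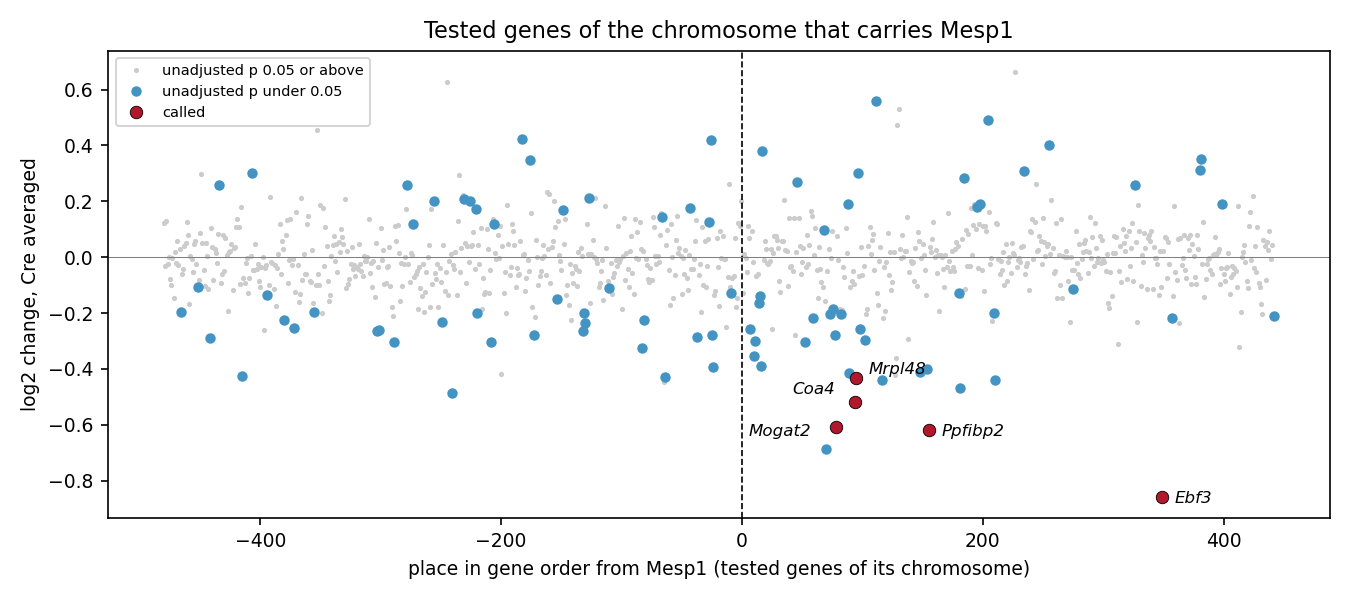
Averaged log2 change of the 922 tested genes of the chromosome of Mesp1 against their place in gene order from Mesp1 (dashed line), with genes at an unadjusted p under 0.05 in blue and called genes in red. Lower genes are dense just right of the line, where 18 of the first 100 are lower at that level against 5 higher.

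The steps on both backgrounds use different arrays and can be set beside each other. CM-Het against Control called 47 genes (0.412%), 21 higher (0.184%) and 26 lower (0.228%). CM-CKO against Het called 25 (0.219%), 5 higher (0.0439%) and 20 lower (0.176%). Of the 20 genes lower in CM-CKO against Het, 15 were lower in CM-Het against Control and 13 of them at an unadjusted p under 0.05, where 8.4% of all genes reached that level in that direction, and 3 were higher at that level (7.43% of all genes). Of the 26 lower in CM-Het against Control, 17 were lower in CM-CKO against Het and 11 at that level (4.04% of all genes), with 4 higher (3.95%). Of the 5 genes higher in CM-CKO against Het, 2 were higher in CM-Het against Control, 1 at that level, and 1 was lower at that level. Of the 21 higher in CM-Het against Control, 3 were higher in CM-CKO against Het, 0 at that level, and 13 were lower at that level. Over all 11394 genes the steps correlated at -0.23, a description only, since a beadchip shift enters them with opposite signs. The 47 calls of CM-Het against Control went to 0 without CM-Het 1, CM-Het 2 or Control 3, to 1 without Control 1, and to between 5 and 20 without any other array except CM-CKO 1 (59) and CM-CKO 3 (35). The 25 of CM-CKO against Het went to 13 without Het 1 or Het 2, and to between 21 and 26 without any other.

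Among the 30 called genes 22 had the larger step in flox/del. The interaction, in which a shift between beadchips 1 and 2 adds, was called for 114 genes (1% of those tested), 6 of the 30 among them, and these were Lum, Ebf3, Bgn, Tgfbi, Vegfc (-0.74, adjusted p = 0.0475) and Cd248 (-0.89, adjusted p = 0.0495). For Lum, Ebf3 and Bgn it stayed called when any 1 array was left out (highest adjusted p 0.0186). Tgfbi lost it without CM-Het 1 or Het 2 (highest adjusted p 0.0563), and for Vegfc and Cd248 it ended on omitting any of 12 arrays (adjusted p up to 0.128 and 0.122). Twist1, Scarf2, Alx4, Pcolce and Lima1 had interactions between -0.34 and 0.07 that were not called, with 95% intervals of -0.52 to 0.16 for Twist1, -0.72 to 0.17 for Scarf2, -0.76 to 0.36 for Alx4, -0.79 to 0.10 for Pcolce and -0.25 to 0.39 for Lima1.

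The other genes called lower were Tns1, Cbr3, Eva1b and Gadd45g. Tns1, an adaptor between integrins and actin, fell 1.65-fold (log2 -0.72, adjusted p = 0.0105), with overlap in flox/wt, and lost its call without CM-Het 1, Het 1 or Het 2 (highest adjusted p 0.0554). The carbonyl reductase Cbr3 fell 1.56-fold (log2 -0.64, adjusted p = 0.0208) with no overlap on either background, though its second probe read -0.14, and lost its call without CM-Het 1, CM-Het 2, Het 1, Het 3 or Control 4 (highest adjusted p 0.0847). Eva1b, a membrane protein, fell 1.40-fold (log2 -0.49, adjusted p = 0.02) and lost its call without CM-Het 1, CM-Het 2, Het 1, Het 2, Control 4 or CM-CKO 3 (highest adjusted p 0.0865). Gadd45g, a growth arrest gene, fell 1.28-fold (log2 -0.35, adjusted p = 0.0385), with -0.53 at its second probe, and its call ended on omitting any of 11 arrays, that is every array but Het 3, Control 2 and CM-CKO 2 (adjusted p up to 0.178). Closest to the threshold from inside were Col23a1, Esm1 and Gadd45g, and from outside Rccd1 (0.0524), Ppp1r9a (0.27, adjusted p = 0.0537) and Unc45a.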

How the data were processed

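Total RNA of E8.5 heads was measured on Illumina bead arrays, 1 array a sample, and genotypes were taken from the labels. Per the file headers, the authors deposited a raw signal intensity for each probe with a detection p-value beside it, and a further deposited table holds log2 values, which equal the quantile normalized log2 intensities to within 0.0329. The software behind the intensities is not given in the sources used here. Within an array the deposited detection p-values are not in the row order of the intensities (rank correlation of -0.105 to -0.0946, 12.3% already in place), so they were put back by rank within each array.

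Background correction and quantile normalization used neqc (limma 3.58.1, R 4.3.3, offset 16). Probes detected at p under 0.05 on at least 3 arrays were kept, and the brightest of each gene was used. Of 45281 probes 34885 have 1 gene symbol, 18 several and 10378 none in the platform annotation. Group means over 14 arrays were fitted with lmFit and eBayes with a trend, and p-values adjusted by Benjamini-Hochberg over 11394 genes. Every adjusted p is from limma, and every value of a gene is on the log2 scale of these signals, which does not compare levels between genes. Dim genes have compressed differences, and the number of arrays limits the precision.

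The 25 gene lists (630 distinct genes, 483 tested) and the genes described were chosen with earlier results of these data known. The rule for named genes took Twist1, Twist2, Mesp1 and Mesp2, the called genes, up to 3 further members of each list by smallest p, neighbours of Mesp1 at an unadjusted p under 0.05, up to 6 genes by smallest interaction p and 3 genes on either side of the threshold. Defining members of lists, such as Kdr and Sox9, were added after their values were seen. The highest correlation of 2 arrays was 0.9944. The fit was tested on simulated data. Gene order and names came from the RefSeq gene table, whose start positions gave the order. No distance in bases between genes was used, since the files name no build. Promoter positions are those of GRCm38.p6. Alternatives covered the background step, filters, probe choice, beadchip, replicate number, tissue scores, fit settings and each array left out.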

Additional observations from a re-analysis of the deposited data

Results flagged for a closer look

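The step with Cre differed between the Twist1 backgrounds, by the limma interaction test, for 13 of the genes examined. Examined were 91 genes from the rule for named genes, mostly with a small p for the average, and Aamp, Idh2 and Vps4b. They are a selected set, so their share is not comparable with that of all genes. Over all 11394 tested genes 114 (1%) were called by that test. Lum, Ebf3, Bgn, Aamp, Idh2 and Vps4b were examined because their interaction p was smallest, so their place among the 13 was fixed in advance. The step was more negative in flox/del for Lum (-1.59), Ebf3 (-1.22), Vegfc (-0.74), Tgfbi (-0.85), Cd248 (-0.89), Bgn (-1.79), the TGF-beta co-receptor gene Tgfbr3 (-0.90), the collagen hydroxylase gene P4ha2 (-0.96) and Aamp (-0.50). It was more positive in flox/del for the growth factor gene Gdnf (1.04), the monooxygenase gene Cyp1b1 (1.22), Idh2 (0.78) and the endosomal ATPase gene Vps4b (1.25). A shift between beadchips 1 and 2 adds to each of these values, so a difference of the backgrounds and a difference of the beadchips cannot be told apart. Idh2 is the fourth tested gene after Mesp1, and Gdnf and Cyp1b1 were not called for the average (0.45 and 0.34).

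One array stood far from the other 3 of its genotype in 13 of 182 groups checked over 91 genes, where chance alone gives about 1 in 20. In Control these were Igfbp5 on array 2 (log2 signal 11.9, lower), Pdgfa on array 1 (10.3, lower), Gdnf on array 2 (5.16, lower), Fgf8 on array 4 (9.04, higher), Emilin1 on array 3 (8.34, higher), P4ha2 on array 4 (8.46, lower) and Eva1b on array 2 (8.15, lower). In CM-CKO they were Nos3 on array 4 (6.23, lower), Lox on array 4 (4.65, higher, though not above background), Fgf8 on array 1 (9.04, lower), Klf6 on array 3 (9.53, higher), Fst on array 1 (9.50, lower) and Notch1 on array 4 (7.24, lower). Of these genes Igfbp5 and Eva1b were called for the average, and neither lost its call without Control 2.

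Among 3109 detected probes without 1 gene name, which no comparison above used, 3 were called for the average of Cre. ILMN_2446405 had a fitted change of -1.59 (limma adjusted p = 1.49e-09, interaction adjusted p = 3.41e-07), with -0.44 in flox/wt. It was not above background on any CM-CKO array, so its flox/del step is known only as at least 5.34-fold lower, and the fitted average is no exact size. Its log2 signal was 7.22 to 7.38 in Control, 6.79 to 6.97 in CM-Het, 7.08 to 7.28 in Het and 4.28 to 4.58 in CM-CKO, which lies below the lowest detected signal of 4.70 to 4.80. ILMN_1241610 changed by 0.55 (adjusted p = 0.00685) and ILMN_2578056 had a fitted change of 0.70 (adjusted p = 0.0186), with 0 of 4 Control arrays above background.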

How the results depend on the processing

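The count of genes called for the average (30) stayed within 1.5 times under 13 of 15 planned settings other than leaving out an array, at 21 with the beadchip as a fixed block and 43 with the heart muscle score, where 25.6% of calls were higher against 13.3%. It moved to 16 with the detection p in deposited order and to 54 with array weights. Leaving out 1 array gave 23 (without CM-Het 1) to 39 (without Het 3). Of the 30, 20 or more kept their call under every setting that tested all of them, and none changed sign. Pou4f1 (-0.033), Klf6 (0.16) and Hes6 (-0.025), none called, turned sign in deposited order, where another probe is read. Counts for single backgrounds were less stable. CM-Het against Control (47) gave 25 with log2(intensity + 16), 20 with no filter, 9 with the mean of probes, 277 with a random block, 6 without beadchip 3, 8 without the arrays lacking Xist, 15 and 30 with the heart and yolk sac scores, 23 without a trend and 110 with array weights, and 0 to 59 leaving out 1 array. CM-CKO against Het (25) gave 16, 40, 13, 13 and 42 with deposited order, a random block, without beadchip 3, without the arrays lacking Xist and with weights, and 13 to 26 leaving out 1. The interaction (114) gave 71 with the mean of probes, 714 with a random block, 28 without the arrays lacking Xist and 175 with weights, and 22 to 96. Leaving out CM-CKO 1 and 2, chosen after seeing the data, gave 32, 26, 16 and 13 for the average, both steps and the interaction. Deviations from the group mean correlated at r -0.237 to 0.251 over 19 pairs of arrays with the same replicate number (median -0.00993, 4 over 0.1). Over 54 pairs with other numbers r was -0.316 to 0.317 (median -0.00889, 11 over 0.1). These values cannot tell whether replicate numbers pair the samples. A replicate block gave 29 for the average, 11 for CM-Het against Control, 17 for CM-CKO against Het and 20 for the interaction. The causes of these moves were not tested. Settings that left arrays out also had fewer arrays, and which arrays were removed and how many were not separated.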

Other observations

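Some further genes did not pass the test, and they are given here as values, chosen after they were seen. Prl8a2, a prolactin family gene known from the decidua, read 10.3 on Het 1 and 4.42 to 6.77 on the other 13 arrays, and it was above background on 0 of 3 CM-Het arrays, at least 2.12-fold below Control (averaged contrast limma adjusted p = 0.577). Zic1, a zinc finger factor of dorsal neural tube and somite, had an averaged change of -0.93 (SE 0.26, adjusted p = 0.238), with overlapping arrays on both backgrounds. Myo7a, an unconventional myosin on the chromosome of Mesp1, read -1.23 in flox/wt and -0.15 in flox/del, -0.69 averaged (adjusted p = 0.171). The chemokine receptor gene Cxcr4 (0.23), the endothelial synthase gene Nos3 (-0.32) and the microfibril gene Mfap2 (-0.18) had no overlap between arrays with and without Cre on either background, at adjusted p of 0.313, 0.175 and 0.129. Of all 11394 tested genes 35 (0.307%) were lower with Cre in this way and 18 (0.158%) higher.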
